A study of Homo sapiens with 5 samples.

Results

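The expression of 10 transcription factor genes of normal and leukemic blood formation was measured in human TF-1 cells with or without a knockout of *MTSS1*. The genes were chosen by name. They comprise *RUNX1*, *RUNX2*, *RUNX3*, and *CBFB*, which encode the core binding factor, the homeobox genes *MEIS1* and *PBX3*, the zinc finger gene *MECOM*, the ETS gene *SPI1*, and the C/EBP genes *CEBPB* and *CEBPG*. All 10 had a row in the table of 27328 Ensembl genes, and 9 of them passed a filter on low counts and were among the 14391 genes tested. *RUNX2* did not pass and is described by its counts alone. TF-1 is an established AML cell line that grows in suspension and depends on GM-CSF. The data comprise 5 libraries. Every library stems from pooled single-cell clones, 4 to a pool, that had received Cas9, GFP, and an sgRNA by lentivirus and were grown without drug. In the 2 control pools (sgCtrl pools 1 and 2) the sgRNA was directed against *renilla luciferase*, a gene that human cells lack. The 3 knockout pools carried sgMTSS1_1, sgMTSS1_2, or sgMTSS1_3, so each knockout replicate has a guide and a set of clones of its own, and guide and clone differences cannot be told apart. Nothing in the labels says that pools were cultured on separate occasions, so the p-values measure the spread between these pools only.

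RUNX proteins bind DNA through their runt domain, and CBFB, which does not itself contact DNA, pairs with them and strengthens that binding. MEIS and PBX proteins bind DNA together and with HOX proteins, and high levels of *MEIS1* go along with *HOXA* genes in many AML. *MECOM* encodes EVI1, a factor of hematopoietic stem cells whose overexpression marks a high-risk AML group. PU.1, the product of *SPI1*, and the C/EBP proteins drive progenitors toward monocytes and granulocytes.

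Control libraries held 2849979 and 3408827 counts and knockout libraries between 5442639 and 8854899, so every knockout library was deeper than both control libraries. Ribosomal protein genes took 7.92% and 9.51% of the counts in control and 12.3% to 18.3% in knockout libraries, and mitochondrially encoded genes took 13.9% and 8.63% against 6.71% to 7.44%. The part of these differences in the results below was not tested. *MTSS1* mRNA overlapped between the groups, with a log2-fold change of −0.58 (Benjamini-Hochberg adjusted p = 0.494, quasi-likelihood test of edgeR). The labels could therefore not be checked by the mRNA of the targeted gene. *NDUFB9* overlaps the last exon of *MTSS1* on the opposite strand, so the *MTSS1* counts are uncertain if strand was ignored in counting. Per the study's methods, loss of the MTSS1 protein had been tested by immunoblot in each clone before pooling, and an edit by Cas9 need not lower the mRNA. All 10 markers of TF-1 progenitor and erythroid cells, among them *CD34*, *KIT*, and *GATA1*, were above 3 counts in every library. Of 3 fibroblast markers and 4 T cell markers in the table, none was above 3 counts in every library. The summed level of 3 B cell markers was 19.4 and 19.7 CPM in control and 9.21 to 12.3 CPM in knockout libraries. The monocyte markers *CD14* and *CSF1R* had at most 1 and 4 counts in any library. Levels are given as CPM, counts relative to the total of the library after scaling by edgeR's TMM factor. Since cDNA synthesis started at the poly(A) tail, a transcript gives reads from its 3′ end whatever its length, and CPM were not divided by length. Less RNA per cell and fewer expressing cells cannot be told apart in such pooled samples.

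RefSeq promoters, which run from 250 bases before to 50 bases after a transcription start on GRCh38.p14, were on hand for 8 of the 10 genes, at 14 starts. They were searched for binding motifs of factors in the group, and several starts of one gene are not independent. The core RUNX motif TGTGGT, searched on both strands, lay in 4 of the 14 promoters, those of *RUNX2*, *RUNX3*, *MEIS1*, and *MECOM*, and in 13.1% of all 35114 promoters. The *RUNX2* promoter that holds it has copies at −191 and −87 bases relative to its start. It and the *RUNX3* promoter with the motif also carry 2 copies in a row, 2 bases apart, on the strand opposite to the gene. They share a run of 18 bases around these copies. Such a pair (ACCACA, any 2 bases, and ACCACA again, on either strand) lay in 0.0114% of all promoters, which is 4 promoters in total. The spacing searched for is that of the *RUNX2* and *RUNX3* promoters, which are 2 of the 4. The share is therefore no independent measure of how unusual the pair is. The pair lies from 16 to 29 bases after the *RUNX2* start, at chr6:45328338-45328367 on the plus strand, and from −131 to −118 bases relative to the *RUNX3* start, at chr1:24965120-24965149 on the minus strand. Both stretches are shown 5′ to 3′ on the strand of the gene, with the reverse complement of the motif in capitals.
RUNX2: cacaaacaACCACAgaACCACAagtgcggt
RUNX3: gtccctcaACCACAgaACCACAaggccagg

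The MEIS motif TGACAG lay in 3 of the 14 promoters, those of *RUNX3*, *PBX3*, and *MECOM*, and in 15.8% of all promoters. Shown are the stretch of the *MEIS1* promoter with the RUNX motif (chr2:66434946-66434971, plus strand) and that of the *PBX3* promoter with the MEIS motif (chr9:125748153-125748178, plus strand). Capitals mark the motif, which in *PBX3* reads as its reverse complement.
MEIS1: gccctgggtgTGTGGTgtttgtgcct
PBX3: ctttgccgagCTGTCAccctcccgct
A C/EBP motif (TTGCNNAA) was found in 1 of the 14 promoters, against 10.5% of all promoters, and the PU.1 motif GAGGAAGT in none of them, against 2.59%. These are matches of letters and not measured binding, and reads from the 3′ end of a transcript do not tell from which of several starts it came.

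Differential expression was called at an adjusted p of less than 0.05 together with a log2-fold change beyond 1 or −1. By edgeR's quasi-likelihood test 0 of the 9 tested genes were called, where 5.18% of all tested genes were, and 0 of the 9 were called with DESeq2 or limma-voom. Before adjustment 2 of the 9 had p under 0.05, *PBX3* with a higher and *MEIS1* with a lower level, where 23.3% of all tested genes did (14.1% higher and 9.23% lower). *MEIS1* passed the filter on low counts only through the control pools, so its lower level in the knockout is in part fixed by that filter. In the knockout, *RUNX3*, *PBX3*, and *MECOM* lay above both control pools in every pool, and *RUNX1* and *MEIS1* lay below both. Among all tested genes, 22.2% lay above and 19.2% below in this way, so 3 and 2 of 9 genes are near the background. The groups overlapped for *CBFB*, *SPI1*, *CEBPB*, and *CEBPG*. The 9 genes had a median of 0.02 on the log2-fold scale, against −0.03 over all tested genes. With libraries scaled by their totals alone, the median of all genes moved to −0.17, and no member lay above both control pools in every knockout pool, where 17.9% of all tested genes did.

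**Figure D1:**
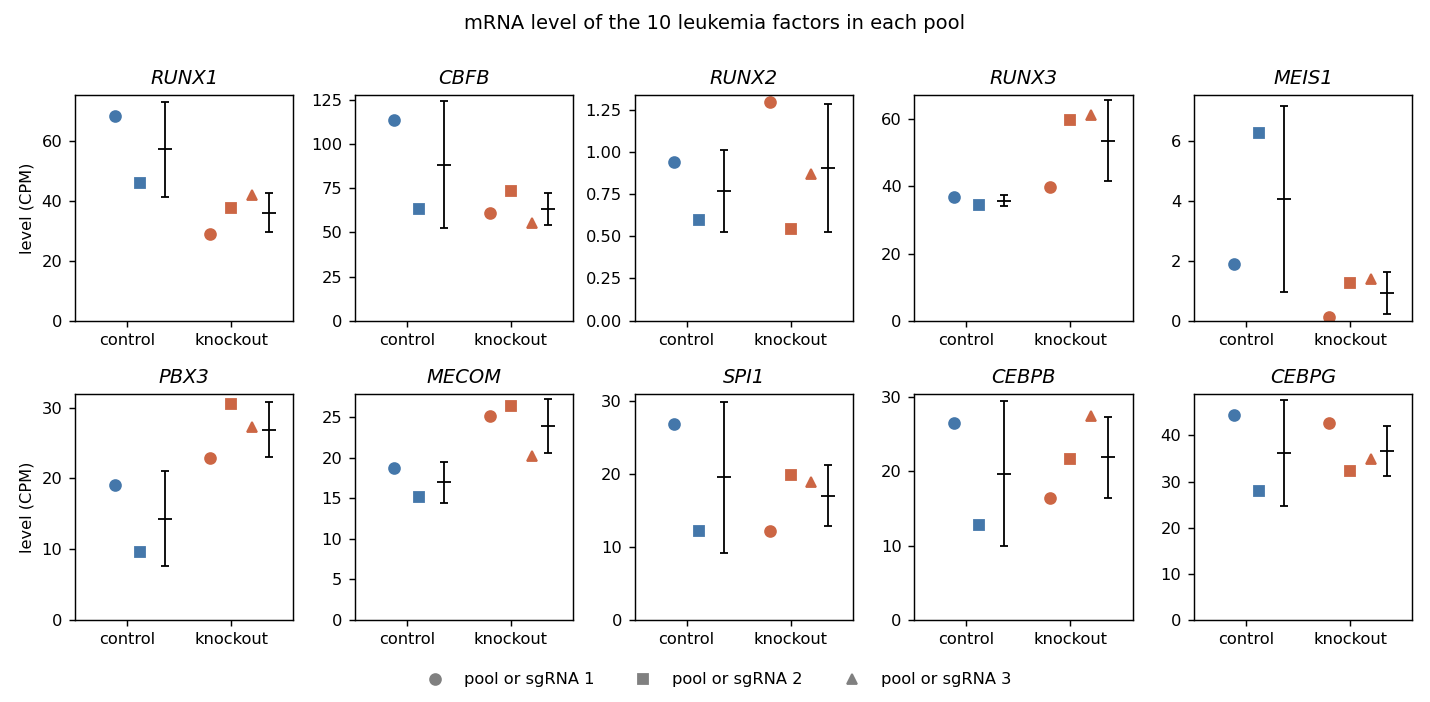
mRNA level of each of the 10 genes in every pool, in CPM on a linear axis that starts at 0 and has its own range for each gene. Blue symbols are control and orange symbols knockout pools, the shape gives the pool or sgRNA number, and black marks with bars give mean and SD (n = 2 control, n = 3 knockout). *RUNX1* and *MEIS1* are lower and *RUNX3*, *PBX3*, and *MECOM* higher in every knockout pool, and *RUNX2* stays at or under 1.30 CPM.

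*RUNX1* (ENSG00000159216, chromosome 21, 34787801 to 36004667, minus strand, GRCh38) encodes the RUNX protein required for the origin of definitive blood stem cells and is among the genes most often mutated or translocated in AML. Its counts were 219 and 154 for control pools 1 and 2, and 223, 208, and 241 for the sgMTSS1_1, sgMTSS1_2, and sgMTSS1_3 pools. Its level was 68.5 and 45.9 CPM in the control pools and 28.9, 37.6, and 41.9 CPM in the knockout pools. All 3 knockout pools were thus below both control pools, the highest of them close to control pool 2. The means were 57.2 ± 16.0 CPM (SD, n = 2) and 36.1 ± 6.62 CPM (SD, n = 3), which gave a log2-fold change of −0.66 (standard error 0.32, 95% interval −1.37 to 0.05, edgeR adjusted p = 0.248). The interval reaches from a level 0.385 times that of the control to one 1.03 times as high. The value was −0.34 without control pool 1 and −0.90 without control pool 2.

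*CBFB* (ENSG00000067955, chromosome 16, 67028984 to 67101058, plus strand), the partner subunit of all 3 RUNX proteins and itself split by the inversion of chromosome 16 in AML, was at 114 and 63.2 CPM in control and 61.2, 73.5, and 55.3 CPM in knockout pools. Control pool 1 stood above the other libraries, and control pool 2 lay inside the range of the knockout pools. The fit put the log2-fold change at −0.48 (standard error 0.33, 95% interval −1.22 to 0.26, edgeR adjusted p = 0.42), and it turned to 0.014 without control pool 1.

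*RUNX2* (ENSG00000124813, chromosome 6, 45328157 to 45664349, plus strand), the regulator of bone formation, gave 3 and 2 counts in control and 10, 3, and 5 in knockout pools. The level was at most 1.30 CPM, in the sgMTSS1_1 pool, where the exact Poisson 95% interval was 0.622 to 2.39 CPM. In 3 of the 5 libraries the count was at or under 3, the smallest that these depths were taken to show, so a difference was not detectable.

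*RUNX3* (ENSG00000020633, chromosome 1, 24899511 to 24965121, minus strand), which acts in lymphoid and myeloid cells, had 118 and 116 counts in control pools and 306, 331, and 352 counts in knockout pools. Its level was 36.9 and 34.6 CPM in control and 39.7, 59.8, and 61.2 CPM in knockout pools. The sgMTSS1_1 pool lay just above the control pools and the other two well above them. This is a log2-fold change of 0.58 (standard error 0.32, 95% interval −0.13 to 1.30, edgeR adjusted p = 0.308), which ran from 0.51 to 0.75 when each pool was left out in turn.

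Since *RUNX1* and *RUNX3* differed in opposite directions, their counts were also set against each other within each library, where depth and scaling cancel. This measure was chosen after the levels had been seen and is given without a test. There were 0.539 and 0.753 counts of *RUNX3* for each count of *RUNX1* in control and 1.37, 1.59, and 1.46 in knockout pools. *RUNX1* gave 64.4% (95% Wilson interval 59.2 to 69.3) and 56.6% (50.7 to 62.4) of the *RUNX1*, *RUNX2*, and *RUNX3* counts in the control pools. In the sgMTSS1_1, sgMTSS1_2, and sgMTSS1_3 pools it gave 41.4% (37.3 to 45.6), 38.4% (34.4 to 42.5), and 40.3% (36.4 to 44.3). Intervals of the control and the knockout pools did not overlap, but they leave out the spread between pools. Reads counted without molecular identifiers may stem from one molecule, so the intervals may be too narrow even for counting error. The summed level of the 3 genes was 106 and 81.1 CPM in control and 69.9, 97.8, and 104 CPM in knockout pools, so it overlapped between the groups (93.7 ± 17.9, SD, n = 2, against 90.6 ± 18.2, SD, n = 3).

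**Figure D2:**
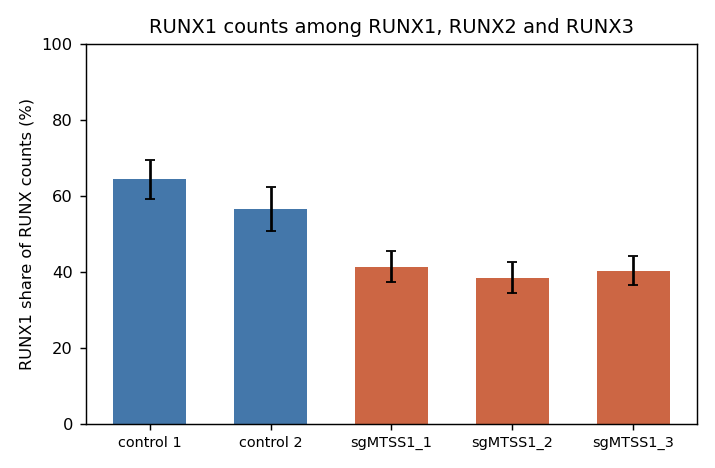
Percentage of the counts of *RUNX1*, *RUNX2*, and *RUNX3* together that came from *RUNX1*, for each pool (blue, control, orange, knockout), with 95% Wilson intervals. The intervals treat each count as independent and leave out the spread between pools. The control pools stand at 64.4% and 56.6% and the knockout pools between 38.4% and 41.4%.

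The balance between the subunits was tested by the log2 ratio of their counts, with 0.5 added to each count, in an exact two-sided permutation test. With 10 ways to assign the labels, the smallest p-value it can give is 0.1. In all, 7 ratios were tested, and p-values were adjusted over them. The ratio of *RUNX3* to *CBFB* was −1.62 and −0.87 in control and −0.62, −0.30, and 0.15 in knockout pools, a difference of 0.99 with no overlap (exact p = 0.1, adjusted 0.233). The ratio of *RUNX1* to *CBFB* was −0.73 and −0.46 in control and −1.08, −0.97, and −0.40 in knockout pools. The groups overlapped for this pair, with a difference of −0.22 (exact p = 0.5, adjusted 0.583), and for *RUNX2* to *CBFB* they overlapped as well, with a difference of 0.49 (exact p = 0.5, adjusted 0.583).

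*MEIS1* (ENSG00000143995, chromosome 2, 66433452 to 66573869, plus strand) encodes the HOX cofactor that sustains leukemic stem cells in *HOXA*-driven AML. There were 6 and 21 counts for control and 1, 7, and 8 for knockout pools. Its level was 1.88 CPM (exact Poisson 95% interval 0.688 to 4.08) and 6.26 CPM (3.87 to 9.57) in control pools, and 0.130 CPM (0.00328 to 0.723), 1.26 CPM (0.508 to 2.60), and 1.39 CPM (0.601 to 2.74) in knockout pools. The knockout pools were all below both control pools, but the interval of control pool 1 overlapped with those of all 3. The interval of control pool 2 lay above those of the knockout pools and overlapped with that of control pool 1. The fitted log2-fold change was −2.17 (standard error 0.84, 95% interval −4.05 to −0.30, edgeR adjusted p = 0.158), and −1.03 without control pool 2. The single count in the sgMTSS1_1 pool, the deepest library, was under the 3 counts taken as the floor. As only the control pools carried *MEIS1* over the filter on low counts, it was tested in 8 of the 13 alternatives and in no fit without a knockout pool.

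*PBX3* (ENSG00000167081, chromosome 9, 125747345 to 125967377, plus strand), a partner of MEIS1 and HOXA9 in leukemia, had 61 and 32 counts in the control and 176, 169, and 157 counts in the knockout pools. Its level was 19.1 and 9.54 CPM in control and 22.8, 30.5, and 27.3 CPM in knockout pools. Every knockout pool was above both control pools, with the sgMTSS1_1 pool nearest to control pool 1. The log2-fold change was 0.91 (standard error 0.38, 95% interval 0.05 to 1.77, edgeR adjusted p = 0.19), or 0.52 without control pool 2. Without control pool 1 it was 1.50 with an adjusted p-value of 0.0496 from the same test, the only setting in which any of the 9 genes was called. The log2 ratio of *MEIS1* to *PBX3* was −3.24 and −0.60 in control and −6.88, −4.50, and −4.21 in knockout pools. The groups did not overlap, which follows from the levels of *MEIS1* and *PBX3* and is no separate result. The difference of −3.28 had an exact permutation p of 0.1 (adjusted 0.233), with a range of −4.60 to −1.95 when a pool was left out. In the sgMTSS1_1 pool the ratio rests on 1 count of *MEIS1*.

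Of the 11 listed genes of the TALE homeobox class, to which MEIS and PBX proteins belong, 9 were tested and *PBX2* alone was called. *PBX2*, which encodes another PBX protein, fell in the knockout. It was at 21.3 and 28.0 CPM in control and 4.67, 9.57, and 7.48 CPM in knockout pools (log2-fold change −1.77, standard error 0.39, edgeR adjusted p = 0.0341). *PBX2* thus differed in the direction opposite to that of *PBX3*. In edgeR's test the call was lost without control pool 2 (adjusted p = 0.0774), the sgMTSS1_1 pool (0.104), the sgMTSS1_2 pool (0.0631), or the sgMTSS1_3 pool (0.116), and an unnamed transcript lies over its last exon on the same strand. The median over the 9 tested genes was 0.00.

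*MECOM* (ENSG00000085276, chromosome 3, 169083499 to 169663775, minus strand) had 60 and 51 counts in the control and 194, 146, and 116 counts in the knockout pools. Its level was 18.8 and 15.2 CPM in control and 25.2, 26.4, and 20.2 CPM in knockout pools, with the sgMTSS1_3 pool closest to control pool 1. The log2-fold change was 0.49 (standard error 0.32, 95% interval −0.23 to 1.22, edgeR adjusted p = 0.4), and 0.38 to 0.66 with each pool left out in turn. Against *RUNX1*, its log2 ratio was −1.86 and −1.58 in control and −0.20, −0.51, and −1.05 in knockout pools. All knockout pools were above both control pools, which follows from the levels of *MECOM* and *RUNX1* and is no separate result. The difference of 1.13 had an exact permutation p of 0.2 (adjusted 0.35).

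The CtBP proteins are corepressors that EVI1 binds. *CTBP1* rose in the knockout, from 42.2 and 31.3 CPM to 94.2, 123, and 122 CPM (log2-fold change 1.62, standard error 0.32, edgeR adjusted p = 0.0237), whereas its paralog *CTBP2* was not called (log2-fold change −0.81, adjusted p = 0.209). The call of *CTBP1* was lost in edgeR's test without the sgMTSS1_1 (adjusted p = 0.0612), sgMTSS1_2 (0.0654), or sgMTSS1_3 pool (0.0776). *CTBP1-AS* overlaps the last exon of *CTBP1* on the opposite strand, so its counts are uncertain if strand was ignored in counting.

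*SPI1* (ENSG00000066336, chromosome 11, 47354860 to 47378547, minus strand) was at 26.9 and 12.2 CPM in the control and 12.2, 19.9, and 19.0 CPM in the knockout pools. The control pools differed from each other more than the knockout pools did, and the groups overlapped. Its log2-fold change was −0.20 (standard error 0.42, 95% interval −1.13 to 0.73, edgeR adjusted p = 0.813), turning to 0.48 without control pool 1. The log2 ratio of *SPI1* to *RUNX1* was −1.34 and −1.90 in control and −1.24, −0.92, and −1.14 in knockout pools. These did not overlap, by a narrow margin, with a difference of 0.52 (exact permutation p = 0.1, adjusted 0.233). Among 16 listed ETS factors, 14 were tested and 1 was called: *ELK1*, a partner of serum response factor, rose from 3.13 and 1.49 CPM to 37.6, 20.6, and 24.9 CPM (log2-fold change 3.58, standard error 0.50, edgeR adjusted p = 0.00984). The log2-fold change of *ELK1* was 4.21 without control pool 1 and 3.17 without control pool 2. Its control level rests on 10 and 5 counts, and only with the knockout pools did it pass the filter on low counts. It was not tested where at least 10 counts were required in every library. The median over the 14 was −0.23.

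*CEBPB* (ENSG00000172216, chromosome 20, 50190830 to 50192668, plus strand) encodes C/EBPbeta, which acts in emergency granulopoiesis and in macrophages. It was at 26.6 and 12.8 CPM in the control and 16.5, 21.7, and 27.5 CPM in the knockout pools, so that the control pools spanned most of the range of the knockout pools. At 0.15 on the log2-fold scale (standard error 0.40, 95% interval −0.75 to 1.05, edgeR adjusted p = 0.86), the difference was within the spread of the pools. The value was 0.78 without control pool 1 and −0.26 without control pool 2. *CEBPB-AS1* overlaps its only exon on the opposite strand, and no exon of another gene overlaps the last coding exons of the other 9 factors.

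*CEBPG* (ENSG00000153879, chromosome 19, 33373685 to 33382686, plus strand) encodes C/EBPgamma, a short family member that lacks an activation domain and pairs with other bZIP proteins. It was at 44.4 and 28.0 CPM in the control and 42.8, 32.3, and 35.0 CPM in the knockout pools. Every knockout pool lay between the control pools. The log2-fold change was 0.02 (standard error 0.32, 95% interval −0.70 to 0.75, edgeR adjusted p = 0.978), an interval that reaches from 0.614 to 1.68 times the control level. The value turned to −0.25 without control pool 2 and to −0.11 without the sgMTSS1_1 pool. For the log2 ratio of *CEBPB* to *CEBPG*, the values were −0.74 and −1.12 in control and −1.37, −0.57, and −0.35 in knockout pools, with a difference of 0.16 (exact permutation p = 0.7, adjusted 0.7).

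None of the 6 listed C/EBP genes was called by edgeR's test with all pools. *CEBPZ*, which carries the family's name but not its bZIP domain, was at 107 and 64.4 CPM in control and 369, 185, and 170 CPM in knockout pools (log2-fold change 1.49, edgeR adjusted p = 0.0781). Every knockout pool was above both control pools. The gene was called with DESeq2 (adjusted p = 0.0143), and with edgeR without a filter on low counts (0.0149), with the replicate block (0.00851), or without control pool 1 (log2-fold change 1.92, adjusted p = 0.04999). *CEBPE*, a factor of late granulocyte maturation, was at 2.50 and 4.47 CPM in control and 1.43, 2.35, and 1.04 CPM in knockout pools (log2-fold change −1.12, edgeR adjusted p = 0.292). These levels rest on 8 and 15 counts in control and 11, 13, and 6 in knockout pools. Both control pools but only the sgMTSS1_2 knockout pool reached the filter on low counts, so the lower level of *CEBPE* is in part fixed by that filter. *CEBPZOS* overlaps the last exon of *CEBPZ* on the opposite strand.

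**Figure D3:**
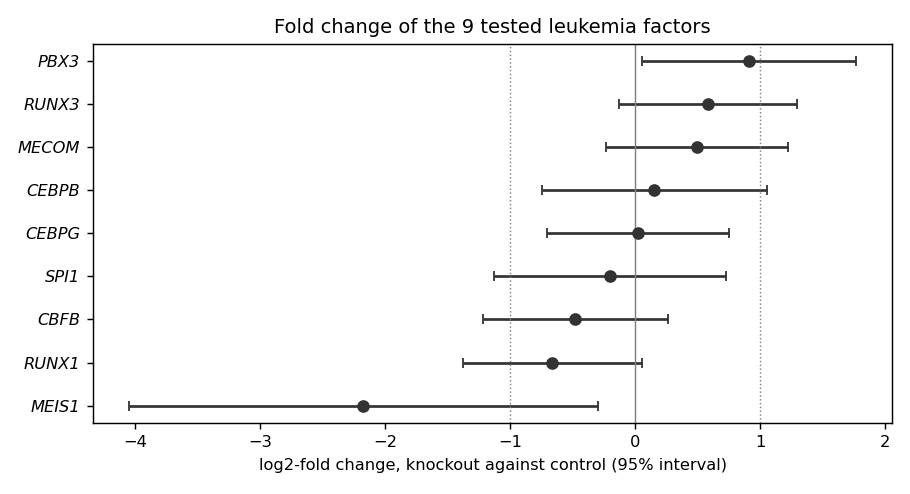
Log2-fold change of the 9 tested factors, knockout against control, with 95% intervals from the quasi-likelihood fit (2 control and 3 knockout pools). Dotted lines mark 1 and −1. The intervals of *MEIS1* and *PBX3* leave out 0 before adjustment over all genes, and those of the other 7 include it.

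Genes that work with these factors were read from 9 lists, which hold 108 genes in all, members included, 102 of them in the table. Of the 85 that were tested, 5 were called higher and 1 lower, where 4.17% and 1.01% of all tested genes were. Their median log2-fold change was −0.03, as was that of all genes. Among 17 partners of the core binding factor, 16 were tested with a median of −0.11, and *HDAC3* was called. *HDAC3*, the deacetylase of the NCoR corepressor complexes that RUNX1-RUNX1T1 recruits, rose from 32.5 and 50.1 CPM to 178, 156, and 192 CPM (log2-fold change 2.08, standard error 0.33, edgeR adjusted p = 0.0131). The call was lost in edgeR's test without the sgMTSS1_1 pool (adjusted p = 0.0591) or the sgMTSS1_3 pool (0.0530), and another transcript overlaps its last exon on the opposite strand.

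Among 19 *HOX* genes of the A and B clusters, 14 were tested with a median of −0.14, and *HOXB4* was called. *HOXB4*, which promotes the self-renewal of blood stem cells, rose from 12.5 and 5.96 CPM to 52.9, 69.5, and 58.3 CPM (log2-fold change 2.71, standard error 0.40, edgeR adjusted p = 0.0109). The call held in all 13 alternative settings, and the log2-fold change was 3.34 without control pool 1 and 2.29 without control pool 2. *HOXB3* overlaps the last exon of *HOXB4* on the same strand, so reads there could belong to either gene. *HOXB3*, named for that reason, was at 21.9 and 14.9 CPM in control and 24.0, 37.2, and 27.8 CPM in knockout pools and was not called.

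Among 21 myeloid target genes of PU.1, the core binding factor, and C/EBP proteins, 12 were tested with a median of 0.10, and *ITGB2* was called. *ITGB2*, the beta chain of leukocyte integrins, was at 30.3 and 107 CPM in the control pools and rose to 405, 445, and 617 CPM in the knockout pools (log2-fold change 2.83, standard error 0.54, edgeR adjusted p = 0.022). The control pools differed widely, and the log2-fold change was 2.20 without control pool 1 and 4.04 without control pool 2. In edgeR's test *ITGB2* was not called without the sgMTSS1_1 (adjusted p = 0.0769), sgMTSS1_2 (0.0561), or sgMTSS1_3 pool (0.0691). The 10 listed targets of HOX proteins and MEIS1 had a median of −0.14 over 8 tested genes, none of them called by edgeR's test. *HIF1A*, the oxygen-sensing factor, was at 65.3 and 48.9 CPM in control and 29.8, 28.9, and 25.1 CPM in knockout pools (log2-fold change −1.03, edgeR adjusted p = 0.0732), and it was called with DESeq2 alone among 13 alternatives (log2-fold change −1.04, adjusted p = 0.0363). *MEF2C* overlapped between the groups (log2-fold change −0.42, edgeR adjusted p = 0.438).

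**Figure D4:**
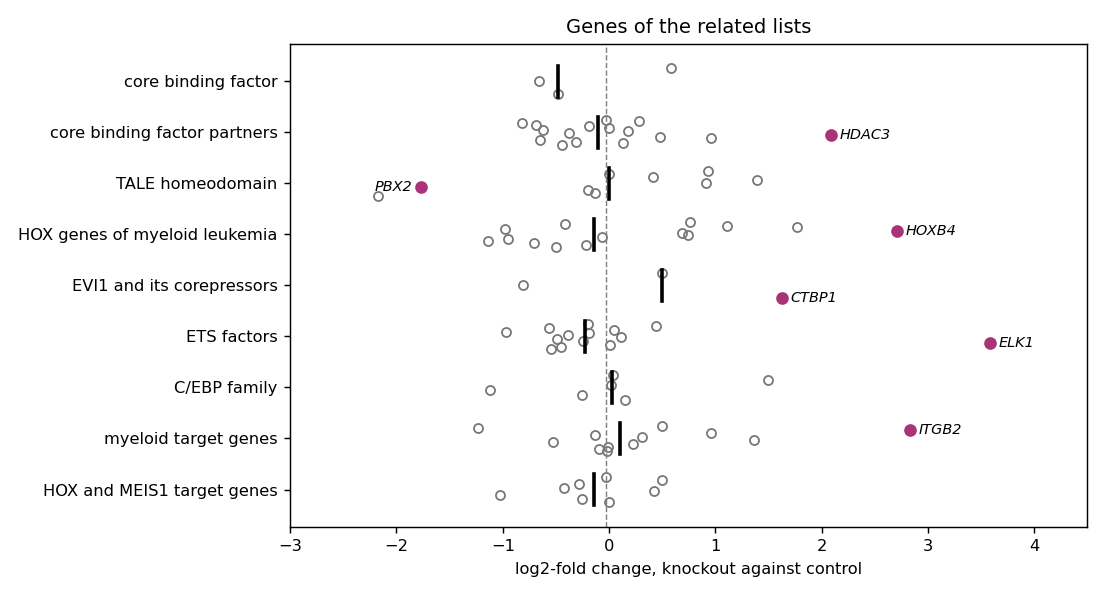
Log2-fold change (horizontal axis, knockout against control) of each tested gene in the 9 lists. Filled symbols with names are called genes, open symbols the others, black bars the medians of the lists, and the dashed line the median of all tested genes (−0.03). The 6 called genes lie in 6 different lists.

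Genes with the profile most like that of a member were sought among tested genes with a mean of at least 10 CPM, by the root mean square difference of log2 CPM, centred on each gene's mean, over the 5 libraries. For *RUNX1* these were *OBSL1* (difference 0.0439), *CNOT7* (0.0439), and *ANKLE2* (0.0517). *MECOM* was closest to *RIMKLB* (0.0420), *PSIP1* (0.0580), and *ZNF181* (0.0724), and *CEBPB* to *CASP2* (0.0498), *RBM42* (0.0797), and *FBRSL1* (0.0849). With 5 libraries and 14391 genes, close profiles are common, and none of the other members was among the 3 nearest.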

How the data were processed

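RNA-seq was analysed for 5 libraries of TF-1 pools. Per the paper's methods and the submitters' processing notes, the authors prepared QuantSeq 3′ FWD libraries, sequenced 50 bp single-end reads, trimmed adapters with BBDuk, aligned to GRCh38 with HISAT2 2.1.0, and used SAMtools 1.10 to keep uniquely mapped reads. The deposited values are raw counts per Ensembl gene. The counting program, the annotation release, and the use of strand are not given in the sources used here. An additional control pool and a pool with another sgRNA did not pass the authors' outlier test and were not analysed here.

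Libraries were grouped by their titles. Counts were filtered with filterByExpr (minimum count 10), scaled with TMM, and tested in edgeR 4.0.16 (R 4.3.3) with the quasi-likelihood test, condition alone, and Benjamini-Hochberg adjustment over all tested genes. DESeq2, the authors' tool, served as an alternative (version 1.42.0), as did limma-voom (limma 3.58.1). The edgeR test was tested on simulated data. Names, positions, and exons come from GENCODE release 44, promoters from RefSeq. Intervals of single counts are exact Poisson, those of shares Wilson, both at 95%. Named were the 10 factors, *MTSS1*, in each list the called genes (at most 4) or else the 2 with the smallest p-value, and the 3 genes most like each of 3 factors. Further genes are named for an overlap or as a marker or paralog. The factors, lists, and tests were chosen with earlier results of these data known. *CEBPA* was not analysed here.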

Additional observations from a re-analysis of the deposited data

How the results depend on the processing

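The 13 alternatives were DESeq2, limma-voom, other scaling, other filters on low counts, thinned libraries, a replicate block, and each pool left out in turn. Of 112 alternative values for the 9 tested factors, 104 kept their direction and their side of the threshold, 7 changed direction, and 1 passed it. *RUNX1*, *RUNX3*, *MEIS1*, *PBX3*, and *MECOM* kept their direction wherever they were tested. With library size alone, *CEBPB* was at −0.00051 and *CEBPG* at −0.15. With a pool left out, log2-fold changes ranged from −0.82 to 0.014 for *CBFB*, −0.64 to 0.48 for *SPI1*, −0.26 to 0.78 for *CEBPB*, −0.25 to 0.40 for *CEBPG*, and −1.04 to 0.16 for *MTSS1*, and the log2 ratio of *CEBPB* to *CEBPG* from −0.046 to 0.47. The number of differentially expressed genes was 745, against 1357 with DESeq2, 1374 without a filter on low counts, and 111 to 1349 with a pool left out. Between 0 and 1 of the 9 factors and 2 to 9 of the listed genes were then called, against 0 and 6 with all pools. Without control pool 2, 5 of the 9 factors lay below the remaining control pool in every knockout pool, where 33.6% of all tested genes did. Without control pool 1, 6 of them lay above it, where 38.8% of all tested genes did. The causes of these shifts were not tested. At the depth of these libraries, *RUNX2* and *MEIS1* give too few counts for moderate changes to be seen.

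The numbers 1 and 2 occur in both groups, but nothing in the labels ties same-numbered pools together, and only 2 numbers are shared. Across 14391 genes, which are not independent replicates, the difference between pools 1 and 2 in the control had a Pearson's r of 0.17 with that in the knockout. With the replicate block, 1094 genes were differentially expressed, none of the 9 factors among them.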
